A study of Mus musculus with 8 samples.

Results

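Cardiac fibroblasts from hearts of old mice, aged 24 months, were compared with those of young adults, aged 3 months, across all expressed genes on the 19 autosomes. Each age had 2 RNA sequencing libraries, so the comparison used 4 of the 8 libraries of the series. The table listed 52442 autosomal genes, of which 15895 had enough counts and were tested, while the other 36547 had too few counts for a test. All libraries were from primary cells of wild-type (WT) hearts that had been cultured for 3 days, so both ages shared the genotype, the tissue and the time in culture, and no treatment besides culture was named. The series also held libraries from newborn hearts, aged 1 to 3 days, and from hearts at 12 months. Its stated aim was to learn why adult and aged fibroblasts resist direct conversion into cardiomyocyte-like cells. The labels give neither the sex of the mice nor the number of hearts in a library, and they do not say that replicates are separate animals or cultures. A p-value here therefore covers the variation between these libraries only, which may be technical.

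Fibroblasts are the cells that make and remodel the extracellular matrix of the heart, the collagen and elastic fibres between the muscle cells, and in culture they attach, spread and divide. With age, fibroblasts of many tissues are known to divide less and to enter senescence, a lasting exit from the cell cycle that the p53 protein and its target p21 help to impose. Senescent cells are known to release a mixture of cytokines, chemokines, proteases and growth factors that is called the senescence-associated secretory phenotype.

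Depth was close between the ages. The 3-month libraries held 22311330 and 21026804 counts and the 24-month libraries 21700917 and 21555853, with 1.68 to 1.71% of counts in mitochondrial genes. Markers of the labelled cell type were abundant: 14 fibroblast markers summed to 38800 and 39590 CPM at 3 months and to 33750 and 34680 CPM at 24 months, where CPM are counts scaled to a library total of 1000000 after TMM adjustment between libraries. Lymphocyte markers summed to at most 0.911 CPM in these 4 libraries, and 5 of the 12 (Cd3d, Cd3e, Cd79b, Ms4a1 and Nkg7) had no count. The ages differed in sex-linked transcripts. Xist, which shuts down an X chromosome in females, measured 0.45 and 0.479 CPM at 3 months, 0.286 and 0.448 CPM at 12 months, but reached 775 and 833 CPM in the 24-month libraries. Ddx3y, a Y-linked gene, was at 124 and 125 CPM at 3 months and at 40.5 and 38.1 CPM at 24 months, and the Y-linked genes Kdm5d, Uty, Ddx3y and Eif2s3y stood at 25.2 to 31.5% of their 3-month level. The 24-month libraries therefore held RNA of female and male cells, whereas the 3-month libraries held almost no Xist, and for every result that follows the effect of age and that of the sex composition cannot be told apart. Genes on the sex chromosomes were left out of the counts.

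Of the 15895 autosomal genes tested, 18.1% passed an adjusted p of 0.05 (2883 genes), with 1383 genes higher at 24 months (8.7%) and 1500 lower (9.44%). Most of these changes were small: the median size was 0.411 on the log2 scale, and 438 genes (2.76%) had changed at least 2-fold, 207 upward and 231 downward. When a change larger than 2-fold was itself the hypothesis tested, 66 genes passed, 30 higher and 36 lower. The libraries of the 2 ages did not overlap for 2874 of the 2883 genes, a description that adds little to the test, because they also did not overlap for 55.3% of all genes tested. Genes with more reads passed more often, since 23% of the 10361 genes that averaged 5 CPM or more were called, and the lists of gene groups given below hold many such genes. The median log2 fold change over all genes tested was 0.002, so a group's median can be read against a value close to 0.

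**Figure D1:**
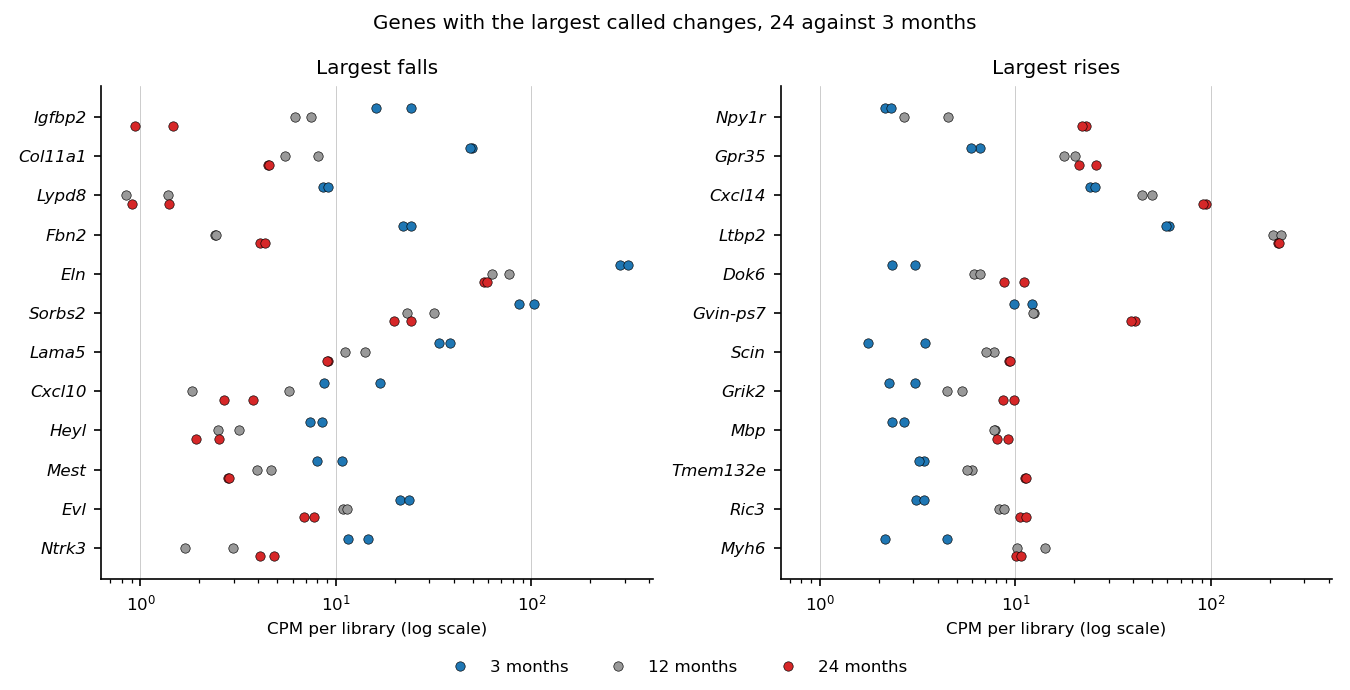
Level of the 12 genes with the largest falls (left) and the 12 with the largest rises (right) among called genes averaging 5 CPM or more, in CPM on a log scale; each dot is 1 library, blue at 3 months, grey at 12 months and red at 24 months. Only genes in which both 24-month libraries lie on the same side of both 3-month libraries were eligible, so that separation was fixed by the choice. Igfbp2 falls from 16 and 24.1 CPM to 0.938 and 1.47 CPM.

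The genes with the strongest statistical support belonged to the elastic fibre system and moved in opposite directions. Eln encodes tropoelastin, the core of the elastic fibre. Its level was 283 and 310.1 CPM at 3 months and at 57 and 59.2 CPM at 24 months, which is a log2 fold change of -2.35 ± 0.06 (SE; adjusted p = 1.48e-21). Ltbp2, a latent TGF-beta binding protein of the microfibrils around elastin, was at 60.8 and 59.2 CPM at 3 months and at 219.5 and 223 CPM at 24 months, a log2 fold change of 1.88 ± 0.05 (adjusted p = 1.48e-21). The ages did not overlap in either gene, with Eln high at 3 months and Ltbp2 high at 24 months. At 12 months Eln was at 77.2 and 62.5 CPM and Ltbp2 at 207 and 228 CPM, so that both were already near their 24-month level. Fbn2, a fibrillin known from developing tissue, fell from 21.9 and 24.1 CPM to 4.08 and 4.32 CPM, with 2.41 and 2.44 CPM at 12 months. Efemp1, a fibulin, rose from 197 and 202 CPM to 368 in both libraries (log2 fold change 0.89 ± 0.05).

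Collagen genes were lower or did not pass, with 1 exception. Of 37 collagen genes tested, 18 were lower and 1, Col22a1, was higher at 24 months, with a median log2 fold change of -0.27. The higher call of Col22a1, a gene outside the naming rule that is given because it was the one exception, was lost in 3 of the 4 fits that left out a library. Col11a1, a minor fibrillar collagen that is prominent in cartilage, fell from 49.5 and 48.4 CPM to 4.5 and 4.56 CPM (log2 fold change -3.43 ± 0.10, adjusted p = 5.74e-21), and the 12-month libraries were at 5.5 and 8.06 CPM. The most abundant fibril collagens moved much less. Col3a1 was at 13350 and 13580 CPM at 3 months and at 11000 and 11420 CPM at 24 months, a log2 fold change of -0.26 ± 0.04 (adjusted p = 1.78e-06). Col1a1 fell by 0.27 and Col1a2 by 0.29 on the same scale, each with no overlap between the ages. Col14a1, a collagen on the surface of fibrils, fell from 610 and 679.6 CPM to 347 and 421 CPM. In all 4 of these abundant collagens the 12-month libraries lay under the 24-month ones, Col3a1 at 7251 and 6649 CPM.

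Other matrix genes split. Of 47 further matrix genes tested, 14 were higher and 20 lower, with a median of -0.04. Dpt, the small matrix protein dermatopontin that binds decorin, fell from 189.7 and 202 CPM to 72.8 and 79.2 CPM (log2 fold change -1.36 ± 0.06, adjusted p = 4.6e-16). Mgp, the inhibitor of tissue calcification, fell from 270.1 and 276 CPM to 152 and 134 CPM. Fn1, the cell-adhesive protein fibronectin, fell by 0.28 ± 0.03, and Postn, the matricellular protein periostin, by 0.39 ± 0.05 on the log2 scale. Against these, Comp, a cartilage oligomeric protein that organises collagen fibrils, rose from 5.53 and 5.56 CPM to 17 and 17.4 CPM, while the 12-month libraries stood at 3.5 and 3.53 CPM. Tnc, which encodes tenascin C, a matrix protein of injured tissue, rose from 742 CPM in both libraries to 1121 and 1053 CPM (log2 fold change 0.55 ± 0.04, adjusted p = 9.38e-12). Of 18 basement membrane and laminin genes, 6 were lower and 2 higher, and 1 was higher without the second library of either age. Among these, the laminin chain gene Lama5 fell from 33.7 and 38.5 CPM to 9.05 and 9.03 CPM, whereas Nid2, a laminin-binding linker, rose from 1114 and 1215 CPM to 1502 and 1546 CPM.

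Genes for collagen processing were more often called higher than lower, but as a group they hardly moved, with a median log2 fold change of 0.02. Of 30 tested, 10 were higher and 4 lower, but with any single library of the 2 ages left out only 1 to 2 of the lower calls remained in number. Pcolce2, an enhancer of procollagen cleavage, rose from 166 and 167 CPM to 262 and 263 CPM (log2 fold change 0.66 ± 0.04, adjusted p = 1.04e-12). Lox, the enzyme that crosslinks collagen and elastin, rose from 1815 and 1920 CPM to 2353 and 2633 CPM. P4ha2, a subunit of the prolyl hydroxylase that modifies collagen, rose by 0.51 ± 0.06 on the log2 scale. The matrix-degrading proteases moved in both directions, with 6 of 32 higher and 7 lower. Mmp3, or stromelysin 1, rose from 3503 and 3370 CPM to 4881 and 5035 CPM, and Mmp12, an elastase best known from macrophages, rose from 42 and 43.9 CPM to 93.1 and 94.7 CPM. The membrane-bound Mmp16 fell from 30.4 and 27.9 CPM to 14.4 and 14.2 CPM. The summed level of 21 macrophage markers was also higher at 24 months, at 380 and 367 CPM against 242 and 277 CPM, and its part in the Mmp12 value was not tested. In bulk RNA, more cells of a type and more RNA per cell cannot be told apart, and likewise for fewer cells and less RNA.

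**Figure D2:**
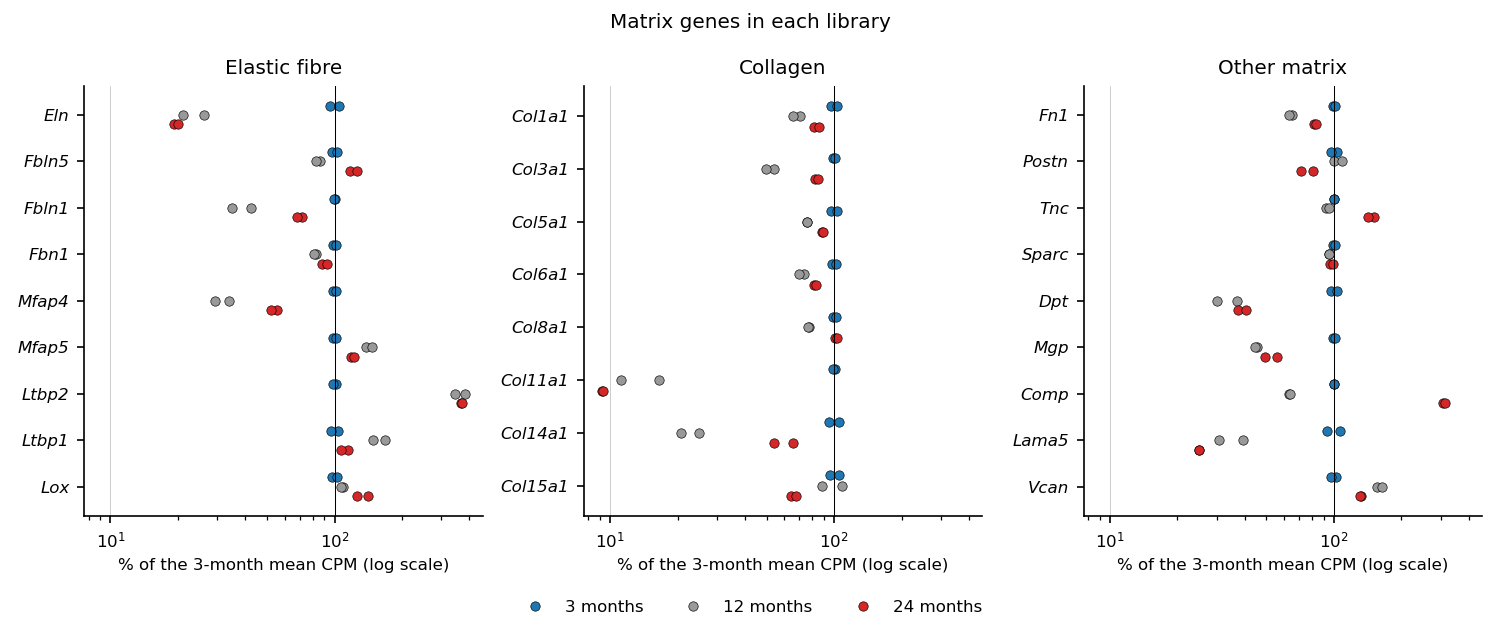
Level of elastic fibre genes (left), collagens (middle) and other matrix genes (right) in each library, as a percentage of the gene's mean CPM at 3 months, on a log scale; dots are single libraries, blue at 3 months, grey at 12 months and red at 24 months, and the vertical line marks the 3-month mean. Eln, Col11a1 and Lama5 lie far to the left at 24 months, Ltbp2 and Comp to the right, and the abundant collagens Col1a1 and Col3a1 lie a little under the line.

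Cell cycle genes fell almost without exception. Of 37 genes of mitosis tested, 36 were lower at 24 months and none was higher, with a median log2 fold change of -0.76, against 9.44% of all genes called lower. Wherever a group is given with no member in a direction by edgeR's test, DESeq2 and limma-voom also called none, and at most 1 member passed an unadjusted p of 0.05 in that direction. Of 35 genes of DNA replication, 32 were lower (median -0.53), and of 30 DNA repair genes, 14 were lower (median -0.31), again with none higher in either group. Mki67, the proliferation marker Ki-67, fell from 284 and 273 CPM to 156 and 138 CPM (log2 fold change -0.92 ± 0.06, adjusted p = 2.13e-13). Cdk1, the kinase that drives entry into mitosis, fell from 77.3 and 75.2 CPM to 45.3 and 41.8 CPM. Top2a, the topoisomerase that untangles chromosomes before they separate, fell from 288 and 275 CPM to 165 and 144 CPM. In each of these genes the 24-month libraries were lower than both 3-month libraries, and the 12-month libraries, for example at 162 and 176 CPM for Mki67, were close to the 24-month ones. Cenpf, a kinetochore protein, fell by 0.98 ± 0.07, the helicase subunit gene Mcm5 by 0.69 ± 0.07 and Fanca, of the Fanconi anaemia repair pathway, by 0.90 ± 0.11 on the log2 scale. Leaving out a library moved the number of lower replication genes between 25 and 33. Ccnd2, which encodes the G1 cyclin D2, went against the rest of the cycle and rose from 337 and 332 CPM to 518 and 568 CPM (log2 fold change 0.70 ± 0.04, adjusted p = 4.25e-13). Of 24 replication-dependent histone genes listed, 6 had enough counts for a test. How RNA was selected is unclear, and its part in the histone counts was not tested. Among 6 histone genes tested, the linker histone gene H1f2 and H2bc4 rose, H1f2 from 20.9 and 22 CPM to 51.1 and 45.5 CPM, while H1f5 had no count at 24 months and was at least 3.28-fold lower there, against a floor of 3 counts over the group, but lost its call in 3 of the 4 fits that left out a library (adjusted p up to 0.289).

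Many promoters of mitotic genes carry a short element, the cell cycle homology region (CHR), through which the DREAM complex is known to repress them in resting cells. The letters TTTGAA were searched on both strands in the RefSeq promoter windows of build GRCm38.p6, each running from 250 bases before the annotated start of a gene to 50 bases after it. They occurred in 21 of 28 windows of the mitosis genes (75%), in 12% of the windows of replication genes and in 12.2% of the 8758 windows of autosomal tested genes with a single window. The search for this element was chosen after the values of the mitosis genes had been seen, and a match describes the letters only. The 250 bases before the start are shown for Cdk1 and Cdc20, a pair of the mitosis genes that fell, with each match in capitals, at 71 and 15 bases before the start in Cdk1 and at 18 bases in Cdc20. Cdc20, the activator of the complex that ends metaphase, was at 59.9 and 62.2 CPM at 3 months and at 39.6 and 33.3 CPM at 24 months, and was picked for display after its values were seen.
Cdk1 (chr10:69352913-69353162, minus strand): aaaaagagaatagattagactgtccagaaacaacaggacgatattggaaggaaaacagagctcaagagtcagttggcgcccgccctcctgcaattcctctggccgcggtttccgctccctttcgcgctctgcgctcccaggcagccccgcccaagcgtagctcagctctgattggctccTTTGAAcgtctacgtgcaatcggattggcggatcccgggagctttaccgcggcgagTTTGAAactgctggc
Cdc20 (chr4:118437344-118437593, minus strand): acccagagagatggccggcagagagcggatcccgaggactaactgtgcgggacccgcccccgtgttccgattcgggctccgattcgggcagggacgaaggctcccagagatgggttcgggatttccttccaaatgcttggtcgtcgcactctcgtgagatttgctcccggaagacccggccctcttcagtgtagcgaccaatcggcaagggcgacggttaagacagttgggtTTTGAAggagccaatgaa

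Targets of p53 were higher, whereas a list of cell cycle inhibitors and other senescence genes moved both ways. Of the 15 genes on that list, 3 were higher (Cdkn1a, Cdkn2b and Bmi1) and 6 lower, with a median log2 fold change of -0.09. Cdkn1a encodes p21, the inhibitor that p53 induces. It rose from 351 and 347 CPM to 531 and 551 CPM (log2 fold change 0.63 ± 0.04, adjusted p = 1.78e-12), with 560.5 and 588 CPM at 12 months. Of 23 p53 target genes tested, 15 were higher and none was lower, with a median of 0.33. These included Mdm2, the ligase that degrades p53, which rose from 176 and 168 CPM to 231 and 241 CPM, and Ccng1, the atypical cyclin G1, which rose from 479 and 461 CPM to 630.2 and 677 CPM. The p53 gene itself, Trp53, was at 114 and 108 CPM at 3 months and at 112 and 111 CPM at 24 months, and did not pass (log2 fold change 0.01 ± 0.05, adjusted p = 0.96).

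The Cdkn2a locus, whose p16 and p19 products are standard senescence markers, was barely expressed. Cdkn2a was at 1.26 and 2.35 CPM at 3 months and at 2.63 and 3.18 CPM at 24 months, a log2 fold change of 0.69 ± 0.28 that did not pass (adjusted p = 0.0846). The 24-month libraries were both higher than the 3-month ones, with an adjusted p that ranged from 0.0154 without the second 3-month library to 0.631 over the alternatives, and the table does not distinguish the p16 from the p19 transcript. Its neighbour Cdkn2b, encoding the p15 inhibitor, was called higher, from 6.92 and 6.18 CPM to 9.15 and 9.55 CPM (adjusted p = 0.00859), but the call was lost with DESeq2 and without the second library of either age, with an adjusted p of up to 0.1. Among the 6 that were lower, Lmnb1, the lamin B1 gene whose loss accompanies senescence, fell from 66.3 and 68.7 CPM to 45.3 and 39.2 CPM, and the chromatin protein gene Hmgb2 fell from 83.3 and 77.6 CPM to 48.3 and 43.5 CPM. Lmnb1 and Hmgb2 are also known to be higher in dividing cells, whose genes fell in the same libraries, and the part of that fall in their values was not tested. Glb1, the gene of the lysosomal enzyme behind the senescence-associated beta-galactosidase stain, was at 82.3 and 78.4 CPM at 3 months and at 86.5 and 86.8 CPM at 24 months and did not pass (adjusted p = 0.171).

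Genes of the secretory phenotype were more often higher than lower. Of 40 genes on a list of it tested, 26 were higher and 6 lower, with a median log2 fold change of 0.45, against 8.7 and 9.44% of all genes. This list shares members with other groups given here, so their counts are not independent. Mmp3 and Mmp12 are also matrix proteases, Igfbp2 and Igfbp3 are also in the IGF group, and Il6 is also among the cytokines. Il6, a central cytokine of the list, rose from 134 and 120.2 CPM to 171 and 166 CPM (log2 fold change 0.41 ± 0.05, adjusted p = 8.32e-07). Igfbp3, a binding protein that keeps IGF from its receptor, rose from 169 and 188 CPM to 361 and 429 CPM (1.15 ± 0.06, adjusted p = 3.52e-14). The largest rises were in genes of low level, Serpinb2, a plasminogen activator inhibitor, from 1.93 and 1.25 CPM to 6.47 and 7.51 CPM, and Mmp10, a stromelysin, from 1.89 and 1.92 CPM to 6.99 and 7.37 CPM. The 6 that fell included Igfbp2, another IGF binding protein, from 16 and 24.1 CPM to 0.938 and 1.47 CPM (log2 fold change -4.04 ± 0.22), and Igfbp5, from 32.1 and 33.1 CPM to 19.6 and 20 CPM. Gdf15, a stress-induced cytokine, was also called lower, by 0.44 on the log2 scale, but the call was lost with DESeq2 and without the first library of either age, over a range of -0.66 to -0.24 and an adjusted p of up to 0.332.

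Chemokines, the secreted proteins that guide immune cells, followed the same direction. Of 26 tested, 17 were higher and 2 lower, with a median of 0.54. Cxcl14 rose the most among those averaging 5 CPM or more, from 24.2 and 25.4 CPM to 94.2 and 90.9 CPM (log2 fold change 1.90 ± 0.07, adjusted p = 3.1e-18), and its 12-month libraries lay between, at 50.2 and 44.5 CPM. Ccl6 rose from 52.8 and 59.8 CPM to 123 and 126 CPM. Cxcl12, which holds CXCR4-bearing cells in tissues, rose from 924 and 917 CPM to 1221 and 1344 CPM. The neutrophil attractant Cxcl5 went from 1497 and 1197 CPM to 2241 and 1875 CPM, a call that DESeq2 did not make (adjusted p = 0.082). The monocyte attractant Ccl2 rose little, from 396 and 374 CPM to 428 and 435 CPM, and its call was lost without the second 3-month library (adjusted p = 0.121). Cxcl1 rose from 127 and 104 CPM to 171 and 164 CPM, though reads of this gene can be shared with its near-identical relatives. The pair that fell was Cxcl10 and Ccl20. Cxcl10, a chemokine that interferon induces but that was counted here and not in the interferon group, was at 8.72 and 16.8 CPM at 3 months and at 3.75 and 2.66 CPM at 24 months (log2 fold change -1.98 ± 0.28, adjusted p = 2.56e-06). Ccl20, named after its values were seen, was at 1.57 and 1.73 CPM at 3 months and at 0.375 and 0.333 CPM at 24 months; the stricter filter on low counts left neither gene to test.

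Cytokines, acute phase proteins, complement and prostaglandin enzymes moved likewise. Of 20 interleukin and cytokine genes tested, 10 were higher and 1, Tnfsf10, which encodes the death ligand TRAIL, was lower, from 3.01 and 3.12 CPM to 0.75 and 0.713 CPM. With the stricter filter on low counts, 6 of the higher calls and none of the lower were left. Il33, an alarmin, rose from 33 and 34.2 CPM to 54.8 and 54.2 CPM. Among complement genes 11 of 21 were higher and 2 lower, of which 1 remained in number when any library was left out. C3, the central component, rose from 1326 and 1340 CPM to 2067 and 2258 CPM (log2 fold change 0.70 ± 0.05, adjusted p = 1.36e-11), and C1s1, a protease of the classical pathway, from 165 and 170 CPM to 279 and 331 CPM. The acute phase genes Saa3, a serum amyloid A, and Hp, the haptoglobin gene, each rose by 1.15 ± 0.08 on the log2 scale. Of 13 prostaglandin genes, 8 were higher and none lower: Ptgs2, the inducible cyclooxygenase, rose from 51.6 and 48.5 CPM to 87.8 and 78.3 CPM, and Ptges, the prostaglandin E synthase, from 17.4 and 19.5 CPM to 32.1 and 37.7 CPM. Macrophage markers were higher in the same libraries. Of 21, 11 were higher and none lower, and Lyz2, the macrophage lysozyme, rose from 78.2 and 94.3 CPM to 145 and 136 CPM. The part of macrophages in the values of these secreted factors was not tested.

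The interferon response went the other way. Interferons are known to induce a broad set of antiviral genes, many of them through the interferon-stimulated response element (ISRE) in their promoters. Of 47 interferon-induced genes tested, 32 were lower and 1 higher at 24 months, with a median log2 fold change of -0.30. Rsad2, the antiviral protein viperin, fell from 35.5 and 45.3 CPM to 18.1 and 17 CPM, and Cmpk2, its neighbour and a mitochondrial nucleotide kinase, from 21.4 and 28.2 CPM to 9.1 and 8.27 CPM. Ifit3, an RNA-binding antiviral protein, fell from 244 and 294 CPM to 155 and 149 CPM (log2 fold change -0.82 ± 0.08, adjusted p = 3.07e-09). Reads of Ifit3 and of its close relative Ifit3b, which fell by 0.95 ± 0.11, may have been split between them. In all of these genes the second 3-month library was the highest and the ages did not overlap. The 12-month libraries were lower than the 24-month ones, with Ifit3 at 72.1 and 89.3 CPM. The single higher gene was Gbp2, a guanylate binding protein named here after its value was seen; its call was lost with DESeq2 and without the second 24-month library. With a library left out, 27 to 28 of the genes were lower, and DESeq2 called 24.

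The ISRE, searched on both strands as a direct repeat of GAAA with 2 free bases between the copies, occurred in 19 of the 28 promoter windows of the interferon genes (67.9%) and in 3.13% of all 8758 windows. Of these 19 genes, 14 were called lower, 1 higher and 4 did not pass, and of the 9 without a match 6 were lower and 3 did not pass. The 250 bases before the start are shown for Rsad2 and Ifit3, which fell, and for Gbp2, the one that rose, with the matches in capitals, all of them on the other strand. The match stood 120 bases before the start in Rsad2 and 59 bases before it in Gbp2, and Ifit3 had a pair, at 156 and 122 bases. Cmpk2, which fell by 1.51 on the log2 scale, was among the genes with no match.
Rsad2 (chr12:26456453-26456702, minus strand): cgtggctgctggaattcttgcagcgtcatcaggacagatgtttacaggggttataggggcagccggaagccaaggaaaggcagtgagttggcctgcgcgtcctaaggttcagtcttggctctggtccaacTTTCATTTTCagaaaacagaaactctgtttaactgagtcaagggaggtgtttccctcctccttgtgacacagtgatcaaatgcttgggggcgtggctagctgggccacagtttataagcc
Ifit3 (chr19:34583279-34583528, plus strand): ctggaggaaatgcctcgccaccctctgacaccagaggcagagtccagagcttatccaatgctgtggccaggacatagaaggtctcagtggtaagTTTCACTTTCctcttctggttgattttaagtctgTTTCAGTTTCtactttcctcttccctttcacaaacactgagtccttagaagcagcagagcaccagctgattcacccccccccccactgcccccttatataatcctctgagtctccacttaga
Gbp2 (chr3:142620413-142620662, plus strand): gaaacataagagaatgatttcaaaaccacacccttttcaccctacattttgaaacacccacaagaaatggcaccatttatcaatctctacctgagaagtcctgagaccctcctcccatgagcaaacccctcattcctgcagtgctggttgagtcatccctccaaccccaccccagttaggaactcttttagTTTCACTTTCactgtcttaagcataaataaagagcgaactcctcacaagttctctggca

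MHC class I genes, which present peptides to T cells and are known to respond to interferon as well, did not fall with the interferon group. Of 20 tested, 9 were higher and none lower, with a median of 0.18. H2-K1 rose from 318 and 326 CPM to 379 and 438 CPM and H2-D1 from 380.4 and 398 CPM to 459 and 514 CPM, by 0.34 and 0.32 on the log2 scale (adjusted p = 6.67e-06 for H2-K1). B2m, the shared light chain, was at 954 and 943 CPM at 3 months and at 1033 and 1146 CPM at 24 months, but its call was lost without the second 24-month library (adjusted p = 0.129). H2-Q6 rose from 1.71 and 1.15 CPM to 3.42 and 5.99 CPM, though this family holds near-identical copies and its counts are uncertain.

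**Figure D3:**
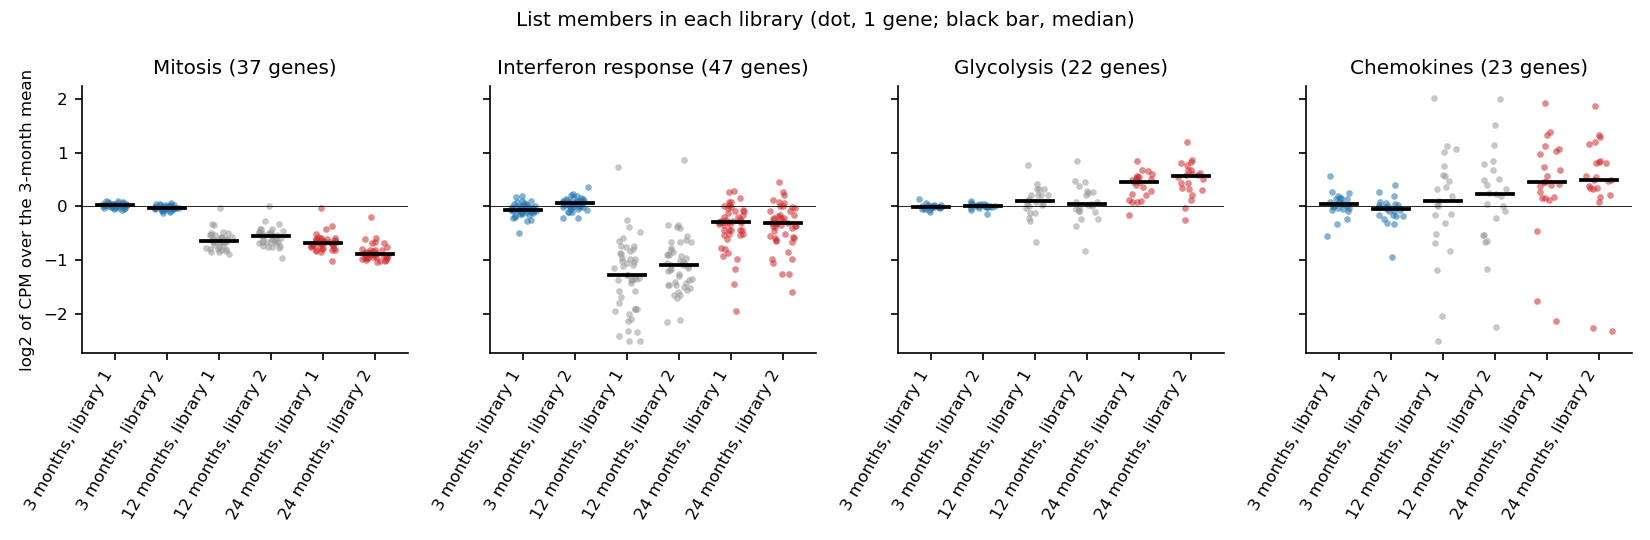
Genes of 4 groups in each library, as the log2 of the CPM over the gene's 3-month mean; each dot is 1 gene averaging 1 CPM or more in the 4 libraries compared (37 mitosis, 47 interferon response, 22 glycolysis and 23 chemokine genes), the black bar is the median, and values beyond 2.5 in size are drawn at 2.5. Mitosis genes lie under the line in both 12-month and both 24-month libraries, interferon genes are lowest at 12 months, and glycolysis genes lie above the line in both 24-month libraries.

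Among genes of energy metabolism, those of glycolysis were mostly higher, while nuclear genes of the respiratory chain changed little. Of 23 glycolysis genes tested, 19 were higher and none was lower at 24 months, with a median log2 fold change of 0.51. Ldha, which makes lactate, rose from 889.9 and 889.5 CPM to 1301 and 1416 CPM (log2 fold change 0.61 ± 0.05, adjusted p = 2.76e-11). Pkm, the pyruvate kinase gene, rose from 1395 and 1355 CPM to 2010 and 2059 CPM, and Slc16a3, the lactate exporter MCT4, from 44.5 and 51.5 CPM to 85.9 and 110.2 CPM. None of these overlapped between the ages, and at 12 months Slc16a3 was at 30.5 and 27 CPM, under both. Of 21 genes of the hypoxia response, a set that shares members with glycolysis, 16 were higher and none lower. Bnip3, a mitophagy receptor that HIF-1 induces, rose from 53.2 and 53 CPM to 89.2 and 116 CPM, and Vegfa, the endothelial growth factor, from 194 and 201 CPM to 266 and 314 CPM. Ndufa4l2, a hypoxia-induced relative of a respiratory subunit, rose from 36.7 and 39.8 CPM to 93 and 132 CPM, but was counted only as a pericyte marker. The pericyte and smooth muscle markers moved both ways, with 4 of 9 higher and 3 lower and a summed level of 220 and 253 CPM at 3 months and of 216 and 261 CPM at 24 months; 2 to 3 were higher with a library left out. That summed level includes Ndufa4l2 itself, so it does not show that the other pericyte markers held their level. Notch3, another of these markers, was lower at 24 months. In Ndufa4l2 and the 5 glycolysis and hypoxia genes given here the second 24-month library was the higher of the pair. By comparison, 2 of 70 nuclear genes of oxidative phosphorylation were called (Ndufs7 and Ndufv3, both higher and both lost in some of the fits that left out a library), 3 of 73 ribosomal protein genes were higher and 2 lower (at most 1 higher in any fit without a library of these ages), and none of 31 proteasome genes passed. These shares lie under the 18.1% of all genes.

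Antioxidant and lysosome genes were more often called higher than lower, and genes of cholesterol synthesis more often lower. Of 31 antioxidant genes of the NRF2 group, 15 were higher and 2 lower. Hmox1, the haem oxygenase, rose from 386 and 380 CPM to 590.3 and 619 CPM, and Sod2, the mitochondrial superoxide dismutase, from 159 and 152 CPM to 241 and 254 CPM (log2 fold change 0.67 ± 0.05, adjusted p = 1.04e-11). Of 31 lysosome and autophagy genes, 13 were higher and none lower; the number fell to 7 without the second 24-month library and rose to 17 without the first. Ctsd, the protease cathepsin D, rose from 761 and 792 CPM to 936 and 1004 CPM. Of 22 genes of cholesterol synthesis, 12 were lower and none higher, but 6 were lower without the first 24-month library and 7 with DESeq2. Hmgcs1, an early enzyme of the pathway, fell from 167 and 179 CPM to 119 and 138 CPM (log2 fold change -0.43 ± 0.06, adjusted p = 6.67e-07).

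Groups of growth factor signalling differed in direction. Of 35 growth factor genes tested, 13 were higher and 6 lower, with a median log2 fold change of 0.18. With DESeq2, 12 were higher and 2 lower. In the TGF-beta group 11 of 24 genes were higher and 1, Tgfb2, was called lower, a call lost in 3 of the 4 fits without a library, which is named as the one exception. Inhbb, an activin subunit, rose from 139 and 133 CPM to 220.1 and 192 CPM. In the IGF group 3 of 17 were higher and 7 lower, with Igf2bp2, an RNA-binding protein of growing tissue, at 58.6 and 58.5 CPM at 3 months and at 30.2 and 29.9 CPM at 24 months (log2 fold change -0.96 ± 0.06, adjusted p = 1.37e-12). Igf1 fell from 81.1 and 86.4 CPM to 59.9 and 57.3 CPM. Nrg1, the neuregulin ligand, fell from 4.99 and 5.17 CPM to 1.69 and 1.57 CPM, while Fgf2 rose from 226 and 216 CPM to 349 and 320.1 CPM. Bmp3, an antagonist within the BMP family, fell from 2.74 and 2.68 CPM to 0.0938 and 0.238 CPM, and the guidance receptor gene Robo2 from 3.73 and 4.26 CPM to 0.234 and 0.57 CPM. Npy1r, a receptor for neuropeptide Y, had the largest rise among called genes averaging 5 CPM or more, from 2.16 and 2.3 CPM to 23.1 and 21.9 CPM (log2 fold change 3.33 ± 0.17, adjusted p = 5.01e-15). Its 12-month libraries, at 4.53 and 2.69 CPM, were near the 3-month ones. Gpr35, a G protein-coupled receptor, rose from 6.57 and 5.94 CPM to 21.1 and 25.8 CPM.

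Adhesion genes were more often lower than higher. Of 18 cadherin and adhesion genes tested, 4 were higher and 9 lower, and of 22 integrin and matrix receptor genes, 3 were higher and 6 lower. The cadherin and adhesion list includes Cdh5 and Mcam, which are also endothelial and pericyte markers. The part of those cells in its values was not tested. Cdh11, the cadherin of mesenchymal cells, fell from 51.4 and 51.2 CPM to 28.3 and 26.8 CPM (log2 fold change -0.90 ± 0.06, adjusted p = 9.21e-12). The leukocyte adhesion molecules went the other way, Vcam1 from 442 and 449 CPM to 622 and 639.9 CPM and Icam1 from 126 and 133 CPM to 196 and 210.1 CPM. Itga8, an integrin subunit of mesenchymal cells, fell from 18.4 and 20.9 CPM to 8.77 and 11.2 CPM, and Cd44, the hyaluronan receptor, rose from 275 and 269.8 CPM to 381 and 385 CPM. Of 37 guidance genes, 9 were higher and 10 lower, with the semaphorins divided: Sema3f fell by 1.44 ± 0.12 and Sema3c rose by 0.77 ± 0.07 on the log2 scale. In the WNT group 7 of 30 were higher and 5 lower, 2 without the second 24-month library, and the secreted antagonists were divided as well. Sfrp2 fell from 41.3 and 43.9 CPM to 26.5 and 21.4 CPM, and Frzb rose from 501 and 485 CPM to 713 and 680.1 CPM.

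Other leading genes were spread over actin binding, membrane and secretory proteins. Sorbs2, an adaptor of the actin cytoskeleton, fell from 86.6 and 103 CPM to 19.7 and 24.3 CPM (log2 fold change -2.11 ± 0.09, adjusted p = 1.75e-16). Cpe, the carboxypeptidase that trims prohormones, fell from 117 and 110.2 CPM to 48 and 42 CPM. Pdlim3, an actinin-binding protein, fell from 95.9 and 99 CPM to 50.2 and 45.5 CPM. The 12-month libraries of Pdlim3, at 24.8 and 19.2 CPM, were the lowest of the 3 ages. Fgl2, a fibrinogen-like secreted protein, fell by 1.08 ± 0.07 and Ntrk3, a neurotrophin receptor, by 1.56 ± 0.17 on the log2 scale. Among the rises, Eef1a2, an elongation factor that is typical of muscle and nerve, went from 13.2 and 10.6 CPM to 40.4 and 32.1 CPM. Scin, an actin-severing protein, went from 1.75 and 3.45 CPM to 9.24 and 9.41 CPM, and Grik2, a glutamate receptor subunit, from 2.25 and 3.07 CPM to 8.63 and 9.84 CPM. Csgalnact1, an enzyme of chondroitin sulfate synthesis, rose by 0.96 ± 0.05 and Hoxd8, a homeobox gene, by 1.37 ± 0.17. The ages did not overlap in any of these leading genes, but that was a condition for choosing leading genes and not a result.

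Genes of parental imprinting, which are expressed from one parent's copy and are known to be high in growing tissue, fell in part. Of 34 tested, 12 were lower and 6 higher, with a median of -0.13. Meg3 and Rian, non-coding RNAs of the Dlk1-Dio3 locus, fell from 119 and 128 CPM to 55.6 and 64.4 CPM and from 111 and 113 CPM to 50.9 and 55.1 CPM (log2 fold change of Rian -1.08 ± 0.05, adjusted p = 7.39e-16). Mest, a hydrolase-like protein, fell from 8 and 10.7 CPM to 2.81 and 2.85 CPM, and Slc38a4, an amino acid transporter, from 5.26 and 3.64 CPM to 0.328 and 0.333 CPM (log2 fold change -3.73 ± 0.30). Peg10, a gene of retrotransposon origin, fell from 1194 and 1211 CPM to 817 and 733 CPM. None of these groups overlapped, and the 12-month libraries of Peg10, at 552 and 524 CPM, were lower than those of 24 months.

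**Figure D4:**
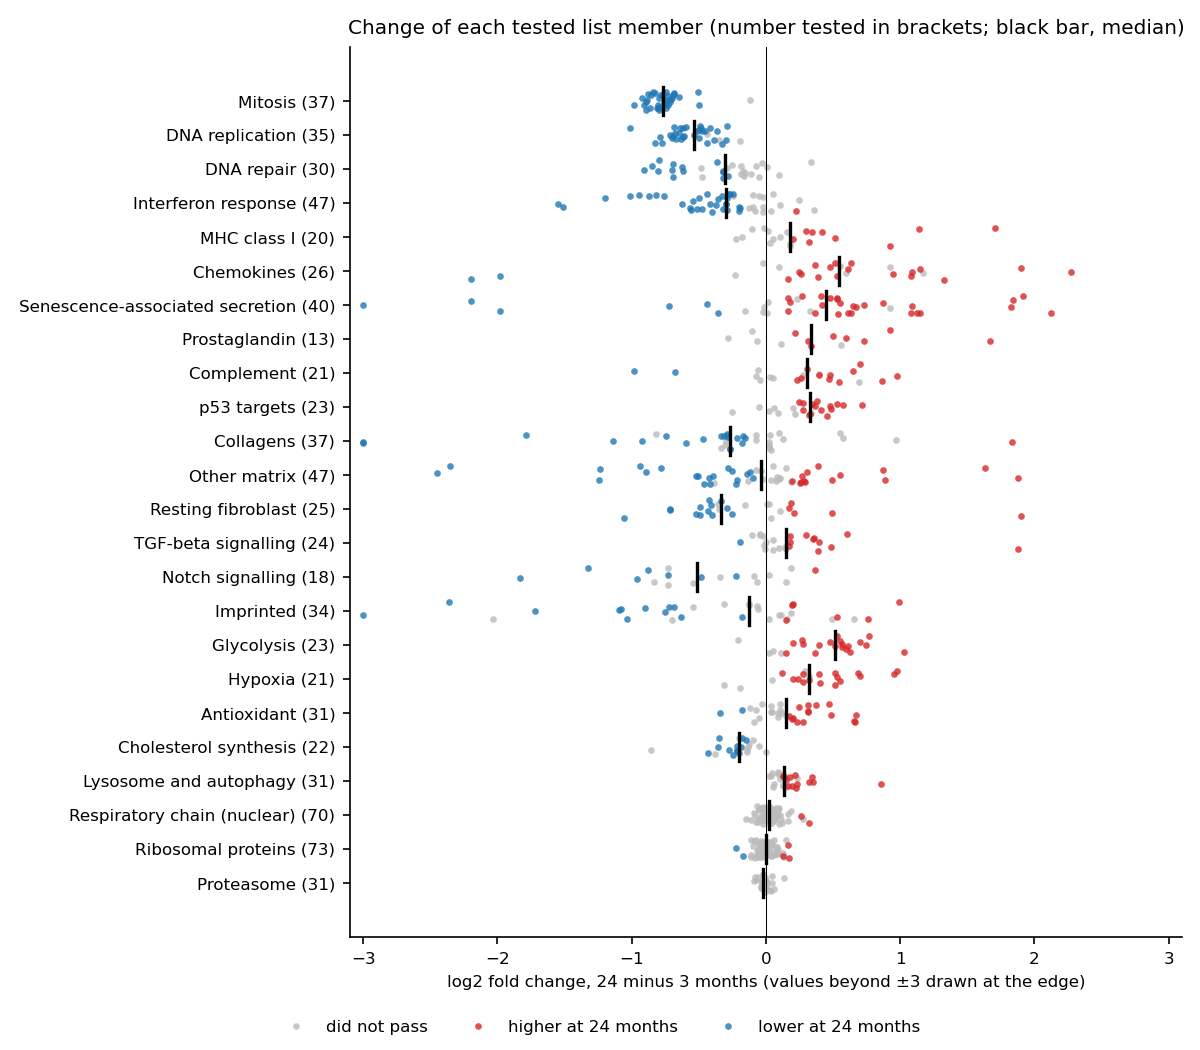
Log2 fold change of every tested member of 24 gene groups, 24 minus 3 months; each dot is 1 gene, red where called higher, blue where called lower and grey where it did not pass, the black bar is the group's median, the number tested is in brackets, and values beyond 3 in size are drawn at the edge. Nearly all mitosis genes lie left of 0 and most glycolysis genes right of it, while respiratory chain, ribosomal and proteasome genes gather at 0.

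Markers of fibroblast identity were lower but far from lost. Of 14 fibroblast markers, 8 were lower and 2 higher, of which DESeq2 called 1 higher. The lower ones include Col1a1, Col1a2, Col3a1, Fn1 and Postn, which were given above with the matrix genes. The fall of these markers is therefore in part the fall of matrix genes counted again. Tcf21, a transcription factor of cardiac fibroblasts, was at 443 and 462 CPM at 3 months and at 386 and 373 CPM at 24 months (log2 fold change -0.25 ± 0.05, adjusted p = 0.000209). Of 25 genes of resting fibroblasts, 13 were lower and 5 higher, with Abca8a, a transporter, falling from 594 and 624 CPM to 434 CPM in both libraries and Cxcl14 and Smoc2 among those that rose. Acta2, the smooth muscle actin that marks myofibroblasts, was at 1174 and 1283 CPM at 3 months and at 1227 and 1221 CPM at 24 months, with overlapping groups (adjusted p = 0.965). Of 27 contractile and myofibroblast genes, 6 were higher and 4 lower. Synpo2, an actin-binding protein, rose from 119 and 134 CPM to 171 and 198 CPM, and Myh10, a non-muscle myosin, fell from 213 and 216 CPM to 167 and 159 CPM. Of the factors used in direct reprogramming, Mef2c fell from 26.5 and 29.2 CPM to 20.4 and 19.6 CPM (adjusted p = 6.1e-05), while Gata4, at 101 and 104 CPM against 110.4 and 105 CPM, Hand2, at 36.3 and 35.8 against 33.7 and 31.3 CPM, and Tbx5, at 2.79 and 1.39 against 2.02 and 2.33 CPM, did not pass. The orphan receptor gene Nr4a3, which the series names, was at 2.38 and 2.11 CPM at 3 months and at 3.52 and 3.33 CPM at 24 months, higher in both old libraries but not past the threshold (log2 fold change 0.60 ± 0.24, adjusted p = 0.0882, from 0.0626 to 0.307 over the alternatives). Nr4a1 was called higher, from 34.7 and 36.6 CPM to 49.4 and 36.9 CPM (adjusted p = 0.0432), but the call was lost in 10 of 17 alternatives, with an adjusted p of up to 0.81, and without the first 24-month library its log2 fold change was 0.05.

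Markers of other heart cells also differed. Of 18 endothelial markers, 13 were lower at 24 months and 1, Eng, named as the one exception and lost without the first library of either age, was higher, with 8 lower without the second 3-month library and 17 without the first. They summed to 837 and 911 CPM at 3 months and to 813 and 795 CPM at 24 months. Flt1, a VEGF receptor, fell from 14.5 and 21.2 CPM to 5.35 and 7.46 CPM, and Kdr, the other main VEGF receptor, from 15.7 and 26.6 CPM to 9.24 and 10.8 CPM, a log2 fold change of -1.07 that ranged from -1.41 to -0.64 over the alternatives. Cdh5, the cadherin of endothelial junctions, was at 40.9 and 60.4 CPM at 3 months and at 24.2 and 31.3 CPM at 24 months, with a log2 fold change of -0.87 that ranged from -1.12 to -0.56 in the same way. The second 3-month library was the higher of its pair in all 3 genes. In the Notch group, whose receptors and targets are active in vessels, 7 of 18 genes were lower and 1 higher, with a median of -0.52. Without the second 3-month library 4 were lower and the median was -0.09. Notch3, the receptor of mural cells, fell from 139.7 and 159 CPM to 88.3 and 92.1 CPM, and Heyl, a Notch target, from 7.33 and 8.53 CPM to 1.92 and 2.52 CPM. The part of endothelial and mural cells in these Notch values was not tested.

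Cardiomyocyte markers were low throughout, and 8 of 22 were higher at 24 months with none lower, or 4 under the stricter filter, which tested fewer of them. They summed to 25 and 29.3 CPM at 3 months and to 44.5 and 47.7 CPM at 24 months, and the atrial myosin light chain gene Myl7 had no count. Myh6, the adult cardiac myosin heavy chain, rose from 2.16 and 4.46 CPM to 10 and 10.7 CPM (log2 fold change 1.66 ± 0.19, adjusted p = 7.18e-08). It is among the largest rises of the comparison, and RNA of a few remaining muscle cells cannot be told apart from expression in the fibroblasts. Mbp, a gene of myelin that is also made by other cells, rose from 2.34 and 2.68 CPM to 9.19 and 8.08 CPM. It was 1 of 2 Schwann cell markers called among 5 tested, whose list summed to 21.5 and 20.3 CPM at 3 months and to 28.2 and 27.6 CPM at 24 months; with any library left out it was 1 of 1. Of 12 mesothelial markers 4 were lower, or 1 without the second 24-month library, all 4 at 2.16 CPM or less in every library compared. The sum of the list was 772 and 773 CPM at 3 months against 750 and 744 CPM at 24 months. Most of that sum came from Aldh1a2, which did not pass (log2 fold change -0.04, adjusted p = 0.561), so it says little about the other members.

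**Figure D5:**
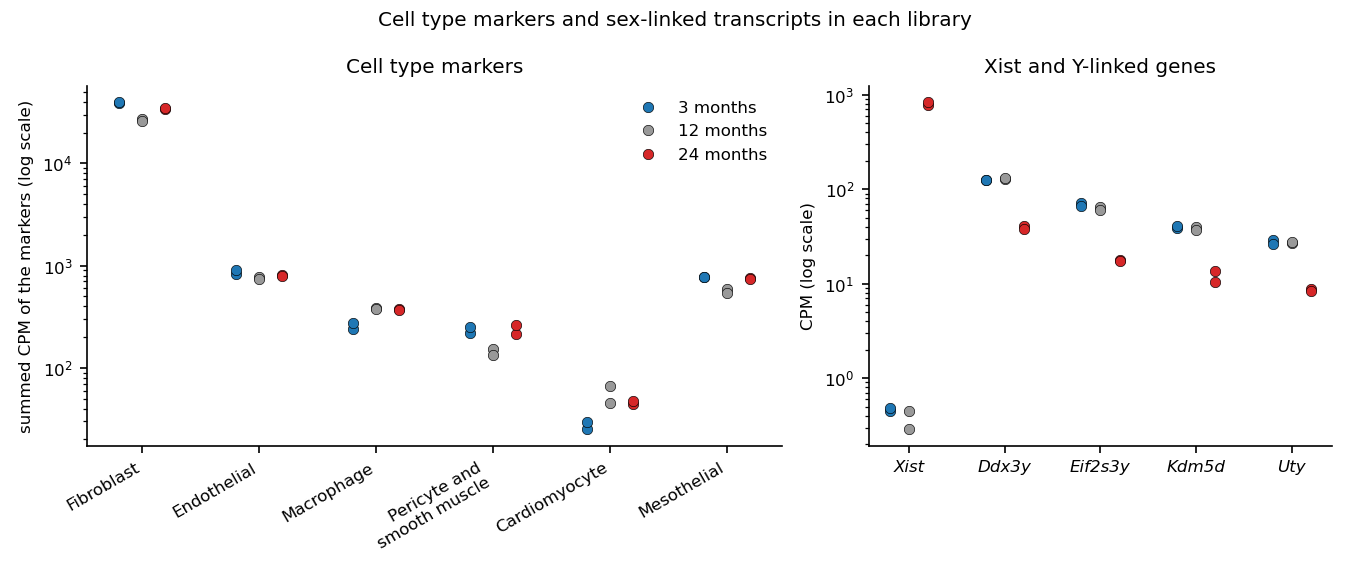
Summed CPM of cell type markers (left) and CPM of Xist and Y-linked genes (right) in each library, on log scales; dots are single libraries, blue at 3 months, grey at 12 months and red at 24 months. Fibroblast markers are the highest at every age, macrophage and cardiomyocyte sums are higher at 24 than at 3 months, and Xist is at 775 and 833 CPM in the 24-month libraries and under 1 CPM at the other 2 ages drawn.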

How the data were processed

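RNA sequencing was made on primary cardiac fibroblasts of wild-type mouse hearts after 3 days of culture, per the labels, with 2 libraries at each of 4 ages. How RNA was selected is unclear: polyA RNA is the labelled molecule, but rRNA depletion precedes stranded mRNA library preparation in the protocol. Per the submitters' processing notes, reads were handled with Trimmomatic 0.36, SAMtools and featureCounts (Subread 1.5.1) on mm10. Which aligner, annotation or strand option was used is not given in the sources used here, so overlapping genes and near-identical copies may share reads.

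The tests used the authors' deposited raw counts of each gene. The authors' deposited FPKM values equal the count scaled by exonic length and library total to within 0.005 and were used only for that check, and the other deposited column is the exonic length. Gene coordinates of the table were not used, because they did not match the named build.

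edgeR 4.0.16 in R 4.3.3 fitted all 8 libraries with 1 coefficient per age, TMM scaling and a filter for about 10 counts in 2 libraries or more (filterByExpr). The contrast was 24 minus 3 months, tested by quasi-likelihood, with Benjamini-Hochberg adjustment over all 16466 genes tested. Calls are at an adjusted p of 0.05. Alternatives were DESeq2 1.42.0, limma-voom (limma 3.58.1), scaling by size factors of DESeq2 or by upper quartiles, no filter, a filter of 10 CPM in 2 libraries, the 4 libraries alone, a replicate block, autosomal genes alone, a minimum change of 2-fold and each library left out. The fits without a newborn or 12-month library were added after the data had been seen. With a library of an age left out, the remaining library is taken to vary as those of other ages do. The scripts were tested on simulated data.

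Genes are named by a rule with 2 parts. Among called genes that average 5 CPM or more, do not overlap between the ages and have an established symbol, it takes the 20 with the largest rises and the 20 with the largest falls, and in each direction the 10 with the smallest p and the 10 most abundant with at least 2-fold change. Whatever their level and call, it adds the 6 smallest p-values of every list, every member of lists with 12 or fewer tested genes, and a set of senescence, matrix and reprogramming genes. The members, the 70 lists and the rule were chosen with earlier results of these data known. No test of a list as a set was made. Promoter windows are those of RefSeq, build GRCm38.p6; the table holds 32851 of them, and 8758 autosomal tested genes had a single window. The searches for promoter elements are descriptions, and those for the CHR were chosen after values were seen. The windows were also searched for the AP-1, CRE, NBRE, TATA box and CCAAT box elements, whose counts are not given. The ISRE and the CHR are therefore a choice from a longer search. Counting error alone is covered by intervals and floors. Figures were drawn with matplotlib 3.10.9.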

Additional observations from a re-analysis of the deposited data

How the results depend on the processing

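Of 348 called genes named by the rule, 294 passed in every alternative that could test them other than the minimum change of 2-fold, which 39 passed, and none of the 348 reversed. The other 54 lost their call in at least 1. With DESeq2 942 genes were lower and 269 called with at least 2-fold change; the stricter filter on low counts left 113 of the latter, having tested 9550 genes. Testing for a change above 2-fold left 66 genes, 30 higher and 36 lower. With 1 library of these ages left out, 1971 to 2286 genes were called, of which 1871 to 2100 were among the 2883, and 1 gene had the opposite sign. Under the other scalings 51 to 51.9% of calls were higher, against 48%, and the median of all genes was at most 0.014. The replicate block called 2719 genes, 2712 of them shared. Over all genes tested, libraries with the same number did not deviate together (correlation 0.0153). A value over all genes cannot show whether such libraries shared a day or preparation that moved only some genes. At an unadjusted p of 0.05, 4512 genes passed. Of genes with few counts, Cdkn2a and Nr4a3 did not pass here.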
